A study of Mus musculus with 8 samples.

Results

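Toll-like receptors (TLRs) were examined in macrophages of mouse malignant ascites, as 10 genes chosen by symbol (Tlr1, Tlr2, Tlr3, Tlr4, Tlr5, Tlr6, Tlr7, Tlr8, Tlr9 and Tlr13) of the 23469 genes in the deposited table. The study compared 4 libraries of ascites-enriched embryonic macrophages (AeEMs) with 4 libraries of ascites-enriched monocyte-derived macrophages (AeMMs), made by Smart-seq2, a full-length cDNA method for small cell inputs. All 8 came from female Ms4a3Cre-RosaTdT fate-mapping mice on the C57BL/6 background, given under the genotype Ms4a3TdT, with the treatment stated as none. All mice carried ID8 tumors, a mouse ovarian surface epithelial line injected intraperitoneally at 4 to 5 weeks of age, and bloody ascites was collected 65 days later. Groups were set by the label alone: Cre is driven by Ms4a3, a gene of granulocyte-monocyte progenitors, so tdTomato-positive macrophages were sorted as AeMMs and tdTomato-negative macrophages as AeEMs. Both were gated as CD45+, Ly6G-, Siglec F-, Ly6C-, CD11b+ and F4/80+, gates meant to leave out neutrophils, eosinophils and Ly6C+ monocytes. Any monocyte-derived cell that had escaped labelling would have been sorted with the AeEMs. The ascites came from 4 mice, and whether libraries of equal number share a mouse is not stated in the sources used here.

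TLRs are sensors of microbial molecules and of some host molecules, each with a leucine-rich ectodomain that binds the ligand and a cytoplasmic TIR domain that recruits the adaptors Myd88 or Ticam1 (TRIF), from which NF-κB and interferon regulatory factors are activated. Tlr1, Tlr2, Tlr4, Tlr5 and Tlr6 act at the cell surface on lipoproteins, lipopolysaccharide and flagellin, whereas Tlr3, Tlr7, Tlr8, Tlr9 and Tlr13 act in endosomes on nucleic acids and depend on the chaperone Unc93b1. Macrophages of the peritoneal cavity are among the cells that use these receptors to sense bacteria and dying cells.

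Values were log2(TPM + 1), where TPM is a transcript abundance scaled to a common library total and corrected for gene length, so levels of different genes can be compared. Back-transformed TPM summed to between 958862 and 974303 per library, and 8498 to 8753 genes reached 1 TPM. Read counts were not used here, so depth is unknown and no counting interval is given. All 7 macrophage markers (Adgre1, Itgam, Csf1r, Cd68, Lyz2, Ptprc and Mertk) reached 1 TPM in the mean and none passed the threshold. Their sums were 69100 to 77180 TPM in AeEMs and 70160 to 85300 TPM in AeMMs. Most of each sum was Lyz2, at 65110 to 73020 TPM in AeEMs and 66510 to 81310 TPM in AeMMs. Without overlap between groups, Adgre1, Csf1r and Mertk lay lower and Cd68 higher in AeEMs. Itgam, Lyz2 and Ptprc overlapped. The table carries an adjustment made before deposit: libraries fall into 3 sets (the pair numbered 1, the pair numbered 2, and the 4 numbered 3 or 4) between which the mean of any gene is almost equal. The median over genes of the range of the 3 set means was 0.0102 on the log2 scale, against 0.211 for the difference between replicates 3 and 4. Differences are therefore given from an unpaired limma fit of the 8801 genes that averaged 1 TPM or more, with Benjamini-Hochberg adjusted p under 0.05 as the threshold, and beside it from the same fit with the 3 sets as a term, which counts fewer free residuals.

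Of the 10 receptors, 8 reached a mean of 1 TPM and entered the test, and 0 of the 8 passed the threshold in the unpaired limma fit or once the 3 sets were a term. Over all genes tested the share called was 2.41% (110 genes higher and 102 lower in AeEMs) in the unpaired fit and 0.159% with the 3 sets. The nearest was Tlr7, lower in AeEMs by 0.36 on the log2 scale, without overlap between groups, at an adjusted p of 0.0523 (limma). An unadjusted limma p under 0.05 was reached by 2 of the 8, Tlr7 and Tlr1, against 18.0% of all genes. Groups did not overlap for 1 of the 8, against 12.2% of all genes. The log2 fold change was negative, that is lower in AeEMs, for 7 of the 8, against 51.2% of all genes, and its median over the 8 was -0.13, against -0.006 over all genes.

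**Figure D1:**
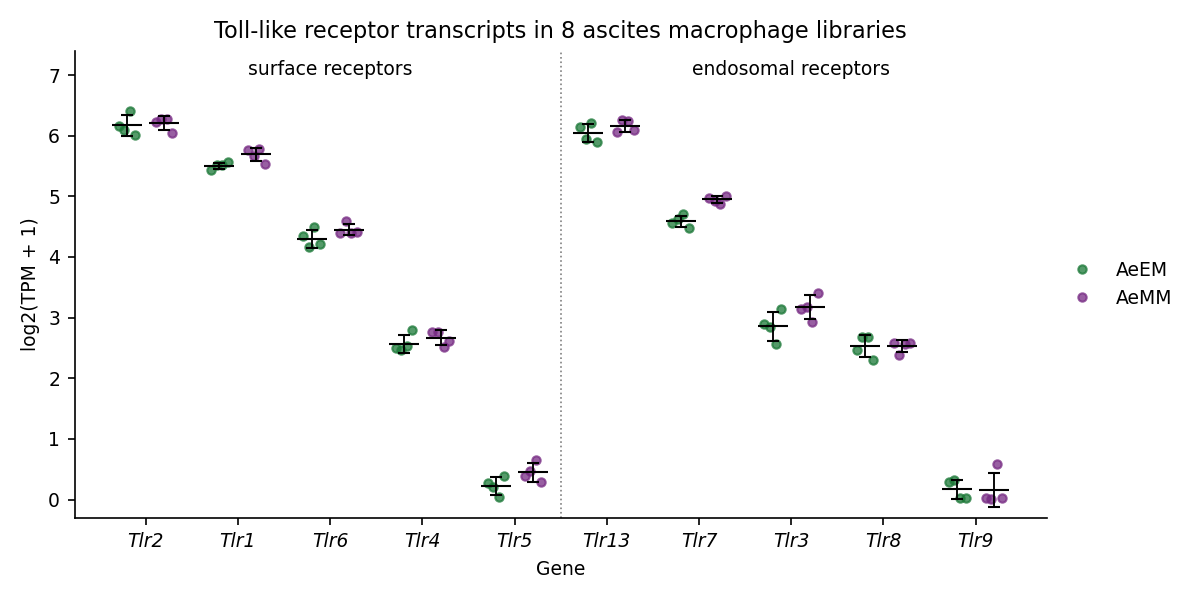
Level of each receptor in log2(TPM + 1) (y axis) by gene (x axis), with 1 point per library, AeEM in green and AeMM in purple, replicates 1 to 4 from left to right, and bars for the mean and SD of 4 libraries. Tlr2 and Tlr13 sit highest at about the same level, Tlr5 and Tlr9 lie near 0, and the groups are separate only for Tlr7.

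Tlr1 and Tlr6 needed a check first, since each pairs with Tlr2 and the genes are neighbors that share part of their coding sequence almost base for base. Both lie on the minus strand of chromosome 5 (mm10, GENCODE M21), Tlr1 at chr5:64924679-64933563 and Tlr6 at chr5:64952031-64960097, 18.5 kb apart. Among the 45 pairs of the 10 receptors they were the only pair whose annotated transcripts share a stretch of 50 bases, and 13.6% of the distinct 50-base words in the transcripts of Tlr1 and 12.3% of those of Tlr6 were shared. The shared stretches lie in the single coding exon of each gene, near its 3′ end, in a window of 910 bases with 10 mismatches (98.9% identity), at chr5:64925030-64925939 in Tlr1 and chr5:64953321-64954230 in Tlr6. This window covers 38.2% of the coding bases of Tlr1 and 37.6% of those of Tlr6. The longest identical run has 229 bases and is printed here because a read within it cannot be assigned to one gene. It lies at chr5:64925537-64925765 in Tlr1 and chr5:64953828-64954056 in Tlr6, and is given 5′ to 3′ on the transcribed strand in the GENCODE sequence, with no base marked by capitals.
Tlr1 and Tlr6: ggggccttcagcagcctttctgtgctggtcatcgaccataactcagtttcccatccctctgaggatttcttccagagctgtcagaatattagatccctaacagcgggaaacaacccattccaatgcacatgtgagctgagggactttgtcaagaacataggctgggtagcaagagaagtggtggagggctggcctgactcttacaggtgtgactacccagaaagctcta
How shared reads were counted is not given in the sources used here, so the split between Tlr1 and Tlr6 is uncertain and the other 8 receptors share no such stretch with each other.

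Among the surface receptors, Tlr2, which senses bacterial lipoproteins together with Tlr1 or Tlr6, had the highest level of all 10. Its log2 values were 6.16, 6.09, 6.41 and 6.01 in AeEM replicates 1 to 4 and 6.22, 6.28, 6.27 and 6.05 in AeMM replicates 1 to 4. AeEM replicate 3 held the highest value and AeEM replicate 4 the lowest, so the AeMMs lay within the range of the AeEMs. The difference, AeEM minus AeMM, was -0.04 (SE 0.0984, adjusted p = 0.891 by limma), with a 95% interval from -0.26 to 0.18. The Tlr2 gene lies at chr3:83836272-83841767 on the minus strand.

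Tlr1, the partner of Tlr2 for triacylated lipoproteins, had log2 values of 5.43, 5.51, 5.52 and 5.56 in AeEMs and 5.77, 5.67, 5.78 and 5.54 in AeMMs. AeMM replicate 4 fell within the AeEM range and the other 3 AeMM libraries lay above it. The difference was -0.19 (SE 0.0767, 95% interval -0.36 to -0.01), at an adjusted p of 0.244 in the unpaired limma fit and 0.660 with the 3 sets. In TPM the means were 44.4 ± 1.68 in AeEMs and 50.7 ± 3.96 in AeMMs (SD, n = 4 each).

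Tlr6, the partner of Tlr2 for diacylated lipoproteins, had log2 values of 4.35, 4.16, 4.49 and 4.21 in AeEMs and 4.40, 4.59, 4.40 and 4.41 in AeMMs. AeMM replicate 2 stood above all others, and AeEM replicate 3 lay above the remaining AeMMs. The difference was -0.15 (SE 0.0980, 95% interval -0.37 to 0.08, adjusted p = 0.492 by limma). The TPM ratio of Tlr1 to Tlr6 was 2.38 ± 0.302 in AeEMs and 2.44 ± 0.271 in AeMMs (SD, n = 4 each), with the reservation on shared reads given above.

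Tlr4, the lipopolysaccharide receptor (chr4:66827584-66930284, plus strand), was at a far lower level than Tlr2. Its log2 values were 2.50, 2.46, 2.53 and 2.79 in AeEMs and 2.76, 2.77, 2.52 and 2.61 in AeMMs. The highest value was in an AeEM library and the groups overlapped, with a difference of -0.09 (SE 0.114, 95% interval -0.35 to 0.16, adjusted p = 0.739 by limma). Tlr5, the flagellin receptor (chr1:182954788-182976044, plus strand), was under 1 TPM in every library, at log2 values of 0.27, 0.21, 0.04 and 0.39 in AeEMs and 0.39, 0.47, 0.66 and 0.29 in AeMMs. It did not enter the limma fit, and a two-sided exact permutation test over the 70 ways to choose 4 of 8 libraries gave p = 0.0857, where the smallest possible is 0.0286. That test treats all assignments as equally likely, whereas the adjustment ties the values of the sets together. Neither its p nor this smallest value is therefore exact here. Tlr5 and Tlr9 were the 2 receptors tested by permutation.

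Among the endosomal receptors, Tlr13, a sensor of bacterial ribosomal RNA that humans lack, was the most abundant (chrX:106143204-106160493, plus strand). Its log2 values were 6.15, 5.95, 6.21 and 5.89 in AeEMs and 6.06, 6.26, 6.25 and 6.09 in AeMMs. The AeEMs included the lowest pair of values, but AeEM replicates 1 and 3 lay within the AeMM range, and the difference was -0.11 (SE 0.0927, 95% interval -0.32 to 0.10, adjusted p = 0.589 by limma).

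Tlr7, a sensor of single-stranded RNA (chrX:167304929-167330558, minus strand), had log2 values of 4.56, 4.62, 4.71 and 4.48 in AeEMs and 4.98, 4.92, 4.88 and 5.01 in AeMMs. Every AeEM library lay below every AeMM library. In TPM the levels were 22.5, 23.6, 25.1 and 21.4 in AeEMs and 30.5, 29.2, 28.6 and 31.3 in AeMMs, with means of 23.2 ± 1.59 and 29.9 ± 1.25 (SD, n = 4 each), so that the mean TPM of AeMMs was 1.29 times that of AeEMs. The log2 difference was -0.36 (SE 0.0775, 95% interval -0.53 to -0.18), and by set -0.42 for the libraries numbered 1, -0.30 for those numbered 2 and -0.35 for those numbered 3 or 4. Its unadjusted p ranked 220 among the 8801 genes, and the adjusted p was 0.0523 in the unpaired limma fit and 0.385 with the 3 sets. The adjusted p fell to 0.0436 when AeEM replicate 3 was left out and lay between 0.0711 and 0.161 when any other library was. In bulk RNA, fewer cells that express a gene and less RNA of it per cell cannot be told apart.

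Tlr8, the neighbor of Tlr7 on the same strand (chrX:167242696-167264329, 40.6 kb away) and also a sensor of RNA products, did not share this pattern. Its log2 values were 2.47, 2.68, 2.68 and 2.31 in AeEMs and 2.59, 2.39, 2.57 and 2.58 in AeMMs. Both groups had a mean of 2.53, and the 95% interval of the difference ran from -0.27 to 0.27 (adjusted p = 0.993 by limma). The TPM ratio of Tlr7 to Tlr8 was 4.84 ± 0.440 in AeEMs, from 4.38 to 5.40, and 6.26 ± 0.479 in AeMMs, from 5.78 to 6.91 (SD, n = 4 each), without overlap between groups. The TPM ratio of Tlr7 to Tlr13 overlapped, from 0.32 to 0.39 in AeEMs and from 0.38 to 0.47 in AeMMs. Neither ratio was tested.

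Tlr3, the receptor for double-stranded RNA, signals through Ticam1 (chr8:45395665-45411080, minus strand). Its log2 values were 2.90, 2.84, 2.57 and 3.14 in AeEMs and 3.15, 3.17, 2.93 and 3.41 in AeMMs. The library of replicate 4 was the highest and that of replicate 3 the lowest in each group, and AeEM replicate 4 lay above AeMM replicate 3. The difference was -0.30 (SE 0.149, 95% interval -0.64 to 0.04), at an adjusted p of 0.338 in the unpaired limma fit and 0.690 with the 3 sets. An antisense gene, Gm45542, overlaps Tlr3, and the strand setting of the counting is not given in the sources used here, so the reads of the pair may not have been separated.

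Tlr9, the receptor for unmethylated CpG DNA (chr9:106222598-106226883, plus strand), was under 1 TPM in every library. Its log2 values were 0.29, 0.33, 0.03 and 0.03 in AeEMs and 0.03, 0.01, 0.58 and 0.03 in AeMMs. AeEM replicates 3 and 4 and AeMM replicate 4 held the same value, 0.02095 TPM, which may be a floor rather than a measured level. The highest value belonged to AeMM replicate 3 and the exact permutation test gave p = 0.886, with the same limit as for Tlr5. The 3 markers of plasmacytoid dendritic cells in the table (Siglech, Ccr9 and Runx2), a cell type known for Tlr9, were also under 1 TPM in every library.

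**Figure D2:**
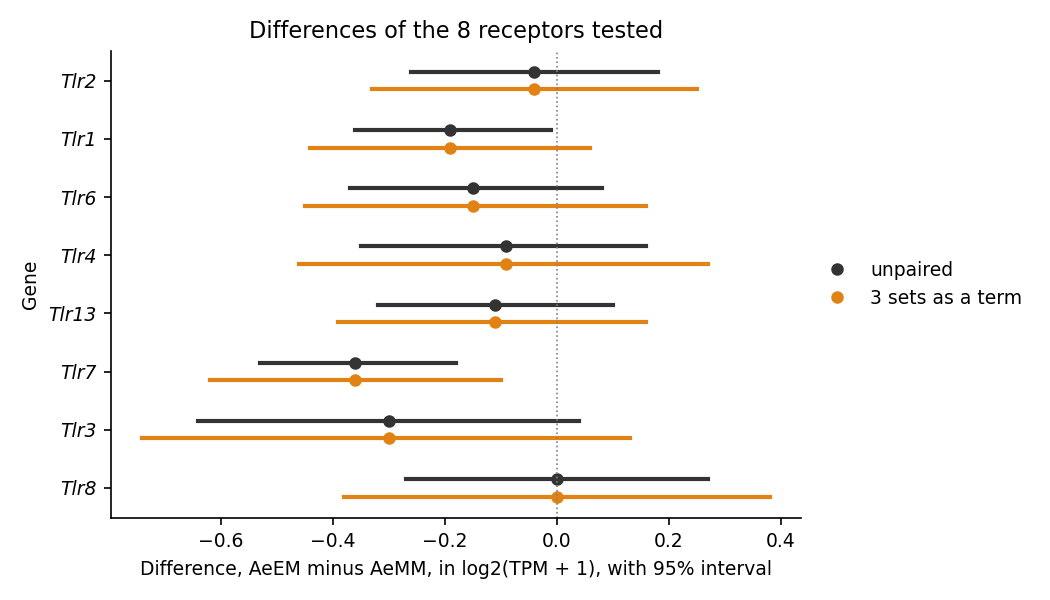
Difference in log2(TPM + 1), AeEM minus AeMM (x axis), of each of the 8 receptors tested (y axis), with 95% intervals from the unpaired limma fit (black) and the limma fit that takes the 3 sets as a term (orange). The point estimate is below 0 for 7 of the 8, and the unadjusted interval excludes 0 in both fits only for Tlr7, from -0.53 to -0.18 unpaired and from -0.62 to -0.10 with the sets.

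Ordered by mean TPM over the 8 libraries, the receptors were Tlr2 at 72.1, Tlr13 at 68.1, Tlr1 at 47.5, Tlr7 at 26.5, Tlr6 at 19.9, Tlr3 at 7.20, Tlr4 at 5.16, Tlr8 at 4.81, Tlr5 at 0.275 and Tlr9 at 0.132. Most steps of this order held in all 8 libraries. The exceptions were Tlr2 over Tlr13 (7 of 8 libraries), Tlr4 over Tlr8 (5 of 8) and Tlr5 over Tlr9 (6 of 8, both under 1 TPM). The TPM ratio of Tlr2 to Tlr13 lay between 0.976 and 1.15, so these levels were close, and their difference was not tested. Tlr2, Tlr13, Tlr1 and Tlr7 together held 84.2% to 86.1% of the summed TPM of the 10 receptors in AeEMs and 83.9% to 86.2% in AeMMs.

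By place in the cell, no receptor of either place passed the test. The 4 surface receptors tested had a median log2 fold change of -0.12 (range -0.19 to -0.04, 4 of 4 negative, 0 called), and the 4 endosomal receptors tested a median of -0.21 (range -0.36 to 0.00, 3 of 4 negative, 0 called). The surface median was -0.077 or -0.079 when the AeEM or the AeMM library numbered 2 was left out, and the endosomal median was -0.302 with a filter of 5 TPM, which leaves out Tlr8. The median absolute log2 fold change of all genes tested was 0.159, and 25% of the genes lay under 0.0695. Summed over the 5 surface receptors, the level was 140 ± 10.4 TPM in AeEMs and 150.3 ± 9.36 TPM in AeMMs, with overlap between groups. Over the 5 endosomal receptors it was 104, 96.1, 108 and 91.7 TPM in AeEM replicates 1 to 4 and 109, 117, 116 and 113 TPM in AeMM replicates 1 to 4. The highest AeEM sum (108.4) lay just under the lowest AeMM sum (109.1). That sum includes Tlr7, and every other endosomal receptor overlapped between groups. A separation is therefore not shown for the endosomal receptors as a class. The surface receptors made up 58.3% ± 1.01 of the total in AeEMs and 56.9% ± 1.58 in AeMMs (SD, n = 4 each), again with overlap. These sums and shares are descriptions and were not tested.

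**Figure D3:**
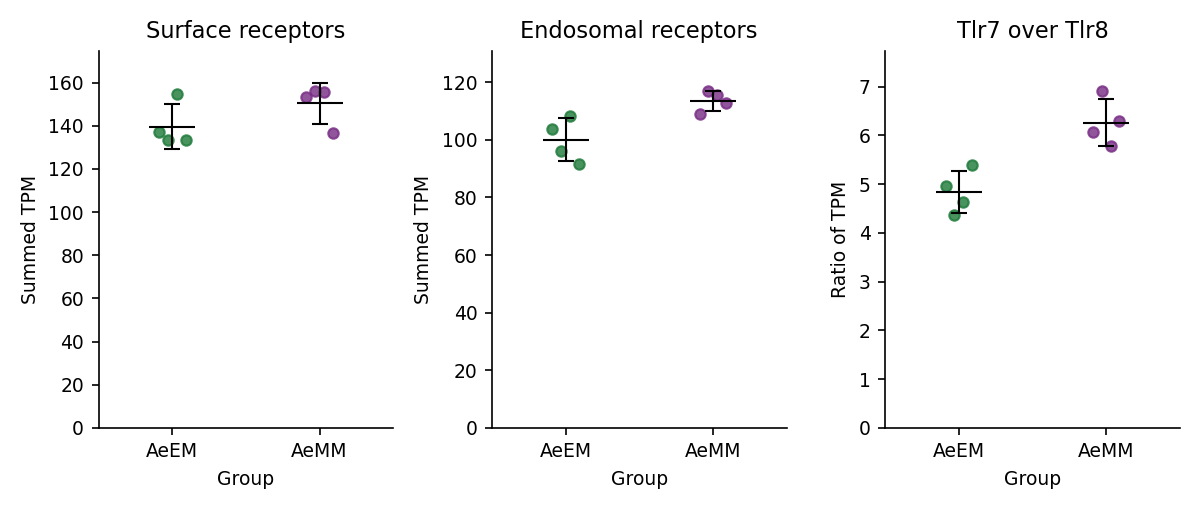
Summed TPM of the 5 surface receptors (left) and of the 5 endosomal receptors (middle), and the TPM ratio of Tlr7 to Tlr8 (right), by group (x axis), with 1 point per library and bars for the mean and SD of 4 libraries. The groups overlap in the left panel, separate narrowly in the middle panel (108.4 against 109.1 TPM) and are separate in the right panel (4.38 to 5.40 against 5.78 to 6.91). The middle sum includes Tlr7, the only endosomal receptor without overlap between groups.

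The partners and downstream genes of the receptors were taken as 11 lists of 105 genes, of which 86 were tested. In the unpaired limma fit 2 of the 86 passed (2.33%, against 2.41% of all genes), Sigirr higher and S100a8 lower in AeEMs, and 0 of the 86 passed with the 3 sets. Groups did not overlap for 10 of the 86 (11.6%, against 12.2% of all genes).

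Sigirr, a receptor of the same superfamily that restrains TLR and interleukin-1 signaling, had log2 values of 1.74, 1.72, 1.05 and 2.08 in AeEMs and 0.35, 0.37, 0.95 and 0.11 in AeMMs. Replicate 3 was the lowest AeEM and the highest AeMM library. The difference was 1.20 (SE 0.250), at an adjusted p of 0.0460 in the unpaired limma fit and 0.254 with the 3 sets. Left out in turn, the libraries moved the adjusted p (limma) to 0.0214 without AeEM replicate 3 and 0.0324 without AeMM replicate 3 but 0.0845 to 0.141 without any 1 of the other 6. With a pseudocount of 0.1 or 5 the difference was 2.42 or 0.42, and the adjusted p was 0.0591 or 0.0519, against 0.137 with no filter and 0.0568 without the trend (limma). The other 11 inhibitors tested did not pass, among them the 2 most abundant, Nfkbia (difference 0.01, adjusted p = 0.933) and Nfkbib (0.47, adjusted p = 0.413 by limma).

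S100a8, a calcium-binding protein reported as an agonist of Tlr4, had log2 values of 3.64, 3.52, 3.77 and 3.52 in AeEMs and 4.58, 4.74, 4.89 and 4.38 in AeMMs, and all AeEMs lay below all AeMMs. The difference was -1.03 (SE 0.122), at an adjusted p of 0.00437 in the unpaired limma fit and 0.0605 with the 3 sets, and it stayed between 0.00598 and 0.0249 with each library left out of the unpaired fit. S100a8 is also abundant in neutrophils and monocytes, which the Ly6G- and Ly6C- gates of the sort were meant to remove. The 4 neutrophil markers in the table summed to 0.247 to 0.404 TPM in AeEMs and 0.209 to 2.36 TPM in AeMMs, with Retnlg, Cxcr2 and Mpo under 1 TPM in every library. Of the 5 monocyte markers, Ly6c2 (0.160 to 2.43 TPM in AeEMs, 3.68 to 6.52 TPM in AeMMs) and Chil3 (0.248 to 2.56 and 4.54 to 15.4 TPM) were also lower in AeEMs in the unpaired fit (adjusted p = 0.0478 and 0.0434 by limma, 0.251 and 0.203 with the 3 sets, and up to 0.144 and 0.0880 with 1 library left out), whereas the sum of the 5 was 166 to 258 TPM in AeEMs and 157 to 199.7 TPM in AeMMs. Their part in the S100a8 difference was not tested. Saa3 (difference -0.56, adjusted p = 0.317) and Hspd1 (-0.02, adjusted p = 0.952), the most abundant reported ligands, did not pass in limma, and S100a9, which pairs with S100a8, had a mean of 0.214 TPM.

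**Figure D4:**
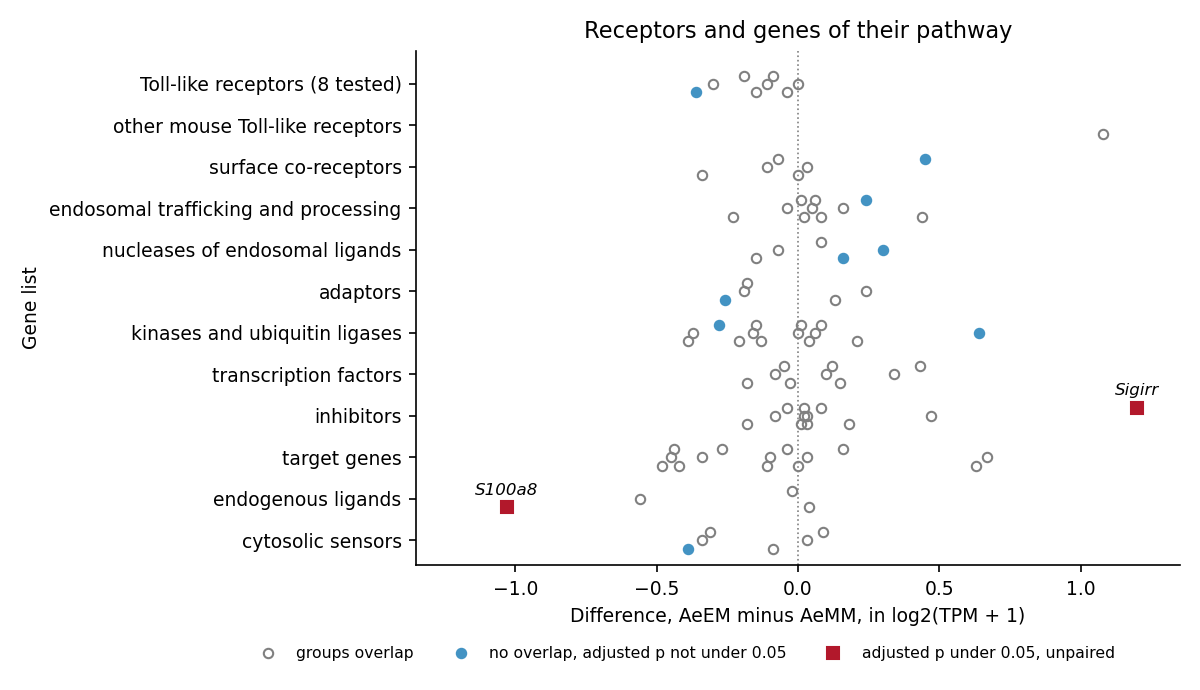
Difference in log2(TPM + 1), AeEM minus AeMM (x axis), of each tested gene, by list (y axis, with points offset vertically for legibility only). Open circles are genes whose groups overlap, blue points genes without overlap that did not pass, and red squares the 2 genes past the threshold of the unpaired limma fit, Sigirr at 1.20 and S100a8 at -1.03. The receptors in the top line lie between -0.36 and 0.00.

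Among the co-receptors of the surface receptors 0 of 6 passed. Cd14, which hands lipopolysaccharide and lipoproteins to the receptors, was the most abundant, at 305 TPM in AeEMs and 298 TPM in AeMMs (difference 0.03 on the log2 scale, adjusted p = 0.950 by limma). Ly96 (MD-2), the lipopolysaccharide-binding partner of Tlr4, had log2 values of 3.51, 3.46, 3.82 and 3.83 in AeEMs and 4.18, 4.18, 3.84 and 3.77 in AeMMs. Its groups overlapped, with a difference of -0.34 (adjusted p = 0.245 by limma), which by set was -0.68 for the libraries numbered 1, -0.72 for those numbered 2 and 0.02 for those numbered 3 or 4. Cd180 (RP105), a TLR homolog without a TIR domain that restrains Tlr4 in macrophages, had log2 values of 1.94, 2.00, 2.12 and 1.95 in AeEMs and 1.60, 1.55, 1.44 and 1.60 in AeMMs. All its AeEM values lay above all AeMM values, by 0.45 in the mean (SE 0.103), at an adjusted p of 0.0595 in the unpaired limma fit and 0.419 with the 3 sets. Ly86 (MD-1), which forms a complex with Cd180, differed by -0.07 (adjusted p = 0.775 by limma).

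In the machinery of the endosomal receptors 0 of 10 trafficking and processing genes and 0 of 5 nucleases passed. Unc93b1, the chaperone of the endosomal receptors, had log2 values of 6.23, 6.28, 6.21 and 6.53 in AeEMs and 6.20, 6.20, 6.29 and 5.92 in AeMMs, with a difference of 0.16 (adjusted p = 0.468 by limma). The TPM ratio of Tlr7 to Unc93b1 was 0.297 ± 0.0457 in AeEMs and 0.430 ± 0.0671 in AeMMs (SD, n = 4 each), from 0.234 to 0.343 and from 0.369 to 0.525, and was not tested. The cathepsins Ctsb and Ctss, lysosomal proteases that trim the receptors, were among the most abundant genes of the pathway, at means of 2144 and 1428 TPM, with differences of 0.01 and 0.08. Of the nucleases, Pld4 (difference 0.16, adjusted p = 0.196) and Pld3 (0.30, adjusted p = 0.0919), exonucleases that degrade endosomal ligands, had no overlap between groups and did not pass in limma.

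Of the adaptors, 0 of 5 tested passed. Myd88, used by all members but Tlr3, had log2 values of 6.03, 5.96, 6.10 and 5.83 in AeEMs and 5.69, 5.76, 5.99 and 5.53 in AeMMs, which overlapped, with a difference of 0.24 (adjusted p = 0.292 by limma). Ticam1, used by Tlr3 and Tlr4, had log2 values of 3.33, 3.35, 3.01 and 3.32 in AeEMs and 3.44, 3.41, 3.67 and 3.53 in AeMMs. All its AeEM values lay below all AeMM values, with a difference of -0.26 (adjusted p = 0.259 by limma). Pik3ap1 (BCAP), which links the receptors to phosphoinositide 3-kinase, differed by -0.18 (adjusted p = 0.436).

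The relay and the readouts did not pass in the unpaired limma fit either. Of 14 kinases and ubiquitin ligases tested 0 passed, with Irak1, the kinase recruited through Myd88, at a difference of -0.39 (adjusted p = 0.0979) and Ikbke, a kinase of interferon regulatory factors, at 0.06 (adjusted p = 0.851). Of 9 transcription factors 0 passed, with the interferon regulatory factors Irf7 at 0.12 (adjusted p = 0.738) and Irf8 at -0.08 (adjusted p = 0.698). Of 14 target genes tested 0 passed, with the chemokines Ccl3 at -0.11 (adjusted p = 0.722) and Ccl4 at -0.48 (adjusted p = 0.370). Of 6 cytosolic sensors tested 0 passed, with the RNA sensors Dhx58 at 0.09 (adjusted p = 0.842) and Ddx58 (RIG-I) at -0.09 (adjusted p = 0.793). The median log2 fold change was -0.07 for the kinases and ligases, 0.10 for the transcription factors, -0.10 for the targets and -0.20 for the cytosolic sensors.

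Of the mouse receptors outside the 10, Tlr11, a sensor of the parasite protein profilin, had log2 values of 2.07, 1.04, 2.45 and 1.72 in AeEMs and 0.50, 1.52, 0.64 and 0.31 in AeMMs. Replicate 2 was the lowest AeEM and the highest AeMM library, and it ran against the others, with a difference of -0.47 against 1.57 in replicate 1 and 1.61 in the set of replicates 3 and 4. The adjustment holds the mean of the pair numbered 2 almost equal to that of the other sets. A low AeEM value in that pair therefore comes with a high AeMM value, and they are not separate observations. The difference of 1.08 (SE 0.342) had an adjusted p of 0.143 in limma and 0.425 with the 3 sets. Tlr12, which acts with Tlr11, had a mean of 0.539 TPM and was not tested. Of 7 markers of dendritic cells, a cell type known for Tlr11, 2 were higher in AeEMs and 0 lower. The 7 markers summed to 44.1 to 106 TPM in AeEMs and 6.29 to 13.4 TPM in AeMMs, of which Cd209a (36.0 to 96.1 and 1.95 to 8.02 TPM, adjusted p = 0.00294, with the 3 sets 0.0326) and Itgax (3.81 to 6.45 and 1.94 to 2.45 TPM, adjusted p = 0.0109, with the 3 sets 0.115) passed in limma. Cd209a made up most of that sum in AeEMs. Ccr7 did not pass (difference 1.48, adjusted p = 0.145 by limma), Clec9a (-0.10) and Xcr1 (0.30) were under the filter, and the defining markers Flt3 and Zbtb46 were under 1 TPM in every library. Their part in the receptor values was not tested.

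The genes whose log2 values followed Tlr7 most closely over the 8 libraries were Bach1 (Pearson r = 0.995), Fcgr2b (r = 0.994), Phf1 (r = 0.993), Cox14 (r = 0.991) and Ms4a6b (r = 0.990), the 5 highest among the genes tested. They are given as a description, since the points share the groups and the adjustment between sets. Bach1, a heme-responsive transcriptional repressor, differed by -0.43 (adjusted p = 0.0363 in the unpaired limma fit, 0.314 with the 3 sets and up to 0.135 with 1 library left out). Fcgr2b, the inhibitory Fc receptor for IgG, differed by -0.28 (adjusted p = 0.0595 and 0.375 in limma). Red cell transcripts were abundant in these libraries from bloody ascites, and the sum of Hbb-bs, Hba-a1 and Alas2 was 6953 to 11630 TPM in AeEMs and 3736 to 9569 TPM in AeMMs, with overlap between groups. None of these genes passed in the unpaired limma fit (adjusted p = 0.167, 0.207 and 0.62). Their part in the Tlr7 or Bach1 values was not tested.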

How the data were processed

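Bulk RNA was measured in 8 sorted libraries, 4 AeEM and 4 AeMM, grouped by their titles. The authors made Smart-seq2 libraries, trimmed the reads with fastp, aligned them to mm10 in STAR 2.7.2a and counted reads by gene in featureCounts of Subread. The deposited values are log2(TPM + 1), although the table is named for TPM. Who took the log and adjusted the 3 sets of libraries, and how, is not given in the sources used here. The adjustment removes spread between sets, so the unpaired fit counts more free residuals than the values hold and its p-values are too small.

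The values were fitted without further change and back-transformed for TPM, with values below 0 set to 0. AeEM minus AeMM was fitted in limma 3.58.1 (R 4.3.3), without pairing and with a trend of variance on level, for genes averaging 1 TPM or more, with Benjamini-Hochberg adjustment over all of them at 0.05. The fits were tested on simulated data adjusted in the same way, where the unpaired fit made more false calls than its threshold allows and the fit with the 3 sets did not. The simulated noise was independent between libraries before adjustment and took its spread from the adjusted values. It may therefore differ from the noise of these data, for instance where libraries share a mouse. Receptors under the filter were compared by two-sided exact permutation, which takes no account of the sets, so those p-values are approximate. Depth is unknown, so the spread among the 4 libraries of a group alone sets the precision. They are called biological replicates, but whether equal numbers share a mouse is not stated, and because the adjustment ties replicates 1 and 2 to fixed set means, the pairing could not be checked.

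The 10 receptors and the lists were chosen with earlier results of these data known. All 10 receptors are named with every value. From each list, genes past the threshold are named, otherwise its 2 most abundant, and Cd14, Ly96, Cd180, Unc93b1, Myd88 and Ticam1 always. Tlr12 and S100a9 are further named after their values were seen. Positions and transcript sequences come from GENCODE M21. The shared sequence of Tlr1 and Tlr6 was chosen for printing after the comparison of transcripts. The fit was repeated with other pseudocounts (0.1, 5), filters (5 TPM, none), scalings, no trend, array weights, a block for replicate number, the 3 sets, a log2 fold change threshold of 1, and without each library. Ifnb1 and Sting1 were not analysed here.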

Additional observations from a re-analysis of the deposited data

Results flagged for a closer look

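A test for a sample far from the others (Dixon's ratio above its 95% critical value) was run on 40 groups of 4 libraries (20 genes, each in AeEMs and AeMMs), and chance picks about 1 in 20 such groups. It picked 4. Tlr6 in AeMM replicate 2 was 4.59 on the log2 scale, against 4.40 to 4.41 in the other AeMMs. Tlr8 in the same library was 2.39, against 2.57 to 2.59, and thus lay on the opposite side. AeEM replicate 2 went the other way, at 4.16 for Tlr6, the lowest AeEM value, and 2.68 for Tlr8, near the highest. The adjustment ties this pair, so neither flag can be assigned to AeMM replicate 2 alone. Tlr9 in AeMM replicate 3 was 0.58, against 0.01 to 0.03, with every value under 1 TPM. Ticam1 in AeEM replicate 3 was 3.01, against 3.32 to 3.35.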

How the results depend on the processing

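The number of genes called, 212 in the unpaired limma fit, was 136 without the trend, 1376 with array weights, 45 with a minimum absolute log2 fold change of 1, 14 when the 3 sets were a term and 5 with the replicate block, a paired fit whose pairing could not be checked. It ranged from 73 (without AeEM replicate 1) to 203 (without AeEM replicate 3). Of the 8 receptors tested, 1 (Tlr7) was called with a pseudocount of 5, with no filter, with a filter of 5 TPM and without AeEM replicate 3, and 2 (Tlr7 and Tlr1) with array weights, so the count ranged from 0 to 1 over the libraries left out. Leaving aside the minimum fold change, which no receptor reached, the adjusted p of Tlr7 ranged from 0.00474 to 0.385 over 18 alternatives, 5 of which passed, and its log2 fold change from -0.40 to -0.31. Of the 86 list genes, 1 in place of 2 was called with a pseudocount of 0.1 or 5, with no filter and with a filter of 5 TPM, 21 with array weights, 0 with the replicate block and 0 with the 3 sets, and 1 to 2 over the libraries left out. Differences near 0 changed sign: Tlr8 was -0.002 with quantile scaling and ranged from -0.046 to 0.078 over the libraries left out, and Tlr2 ranged from -0.12 to 0.014. Of the other genes named, Ctsb was -0.11 with quantile scaling, Ikbke -0.13 with array weights and Hspd1 0.004 with median-of-ratios scaling. Over the libraries left out, Cd14 ranged from -0.039 to 0.16, Ctsb from -0.027 to 0.033, Ikbke from -0.007 to 0.13, Irf7 from -0.01 to 0.20, Nfkbia from -0.009 to 0.037, Hspd1 from -0.069 to 0.012 and Dhx58 from -0.065 to 0.24. With the minimum fold change again left aside, Cd180 passed in 3 of 17 alternatives (lowest adjusted p 0.00925, highest 0.419 in limma). The cause of these changes was not tested. The other receptors tested kept their direction under every alternative run but not their size, and over the libraries left out Tlr1 ranged from -0.24 to -0.16, Tlr3 from -0.40 to -0.20, Tlr4 from -0.17 (without AeEM replicate 4) to -0.056 (without AeEM replicate 2), Tlr6 from -0.21 to -0.098 (without AeEM replicate 2) and Tlr13 from -0.17 (without AeEM replicate 3) to -0.061 (without AeEM replicate 4). Read counts were not used, so what depth limits is unknown.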
